A study of Mus musculus with 9 samples.

Results

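Hairpin 97, a short hairpin RNA directed at Csnk1a1, was set against a control hairpin directed at luciferase (Luc) in mouse leukemia stem cells. The comparison rests on 6 of the 9 bead arrays of the series, 3 of hairpin 97 (replicates 4 to 6) and 3 of Luc (replicates 1 to 3). Its members are the probes with a gene symbol whose detection p, the probability of such a signal from background alone, was under 0.05 on at least 3 of these 6 arrays. This rule took 10078 of 45281 probes, which stand for 7089 of the 19057 genes with a named probe. Cells of every group had a C57BL/6 background, carried the Actin-dsRed reporter and were driven by the MLL-AF9 oncogene. They came from bone marrow of mice with leukemia after serial (quaternary) transplantation and were sorted as Hoechst low, dsRed positive, c-kit high, CD34 positive and high for the Fc gamma receptor FcyRII. The third group of 3 arrays carried hairpin 94, a second hairpin against the same gene, and is used only to set values side by side. The labels give no age and name no vector. They are silent on whether the 3 samples within a group were separate mice, so the p-values reflect only the scatter of these samples, which may be technical.

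Csnk1a1 encodes casein kinase 1 alpha. This kinase primes beta-catenin for destruction within a complex that also holds Axin, APC and GSK3, and together with MDM4 it holds p53 in check. MLL-AF9 is a fusion transcription factor that keeps HOXA genes and MEIS1 active in myeloid progenitors. Such cells normally make the proteins of primary (azurophil) granules as promyelocytes and those of secondary (specific) granules later, under the transcription factor C/EBP epsilon, as they mature toward neutrophils. The comparison asks how the RNA levels of these leukemic progenitors differ when they carry hairpin 97.

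The loss of the target could not be checked on these arrays. The single Csnk1a1 probe stayed undetected on all 9 arrays, and its detection p ranged from 0.293 to 0.839 on the 6 arrays of the comparison. The hairpin 97 arrays detected 12969 to 14168 of all probes and the Luc arrays 9262 to 10347. Their mean signal was 174.6 to 201.1 against 129.3 to 131.7 for Luc. Neither measure overlapped between the groups, and each had a two-sided exact permutation p of 0.1, the smallest that 20 splits of 3 against 3 arrays can give. The hairpin 94 arrays had 13053 to 14280 detected probes and a mean signal of 167.6 to 195.8, ranges that overlapped those of hairpin 97. Array brightness and the hairpin cannot be told apart in this comparison. Adding each array's number of detected probes to the limma fit as a covariate left 0 calls for hairpin 97 against Luc, with 1061 at an unadjusted p under 0.05. The progenitor markers checked the labelled cell type. Of 10 such markers 9 had a signal above background on 3 or more of the 6 arrays, among them Mpo, Elane, Hoxa9, Meis1 and Kit, while Cd34 was detected on 0 Luc and 2 hairpin 97 arrays. Of the other marker lists, counted over markers with a probe, 3 of 5 for monocytes and macrophages, 3 of 6 for mast cells, basophils and eosinophils and 3 of 7 for mature neutrophils reached that mark. It was reached by 1 of 6 T and NK cell, 1 of 4 B cell, 1 of 6 megakaryocyte, 1 of 6 stromal and endothelial and 0 of 6 erythroid markers.

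**Figure D1:**
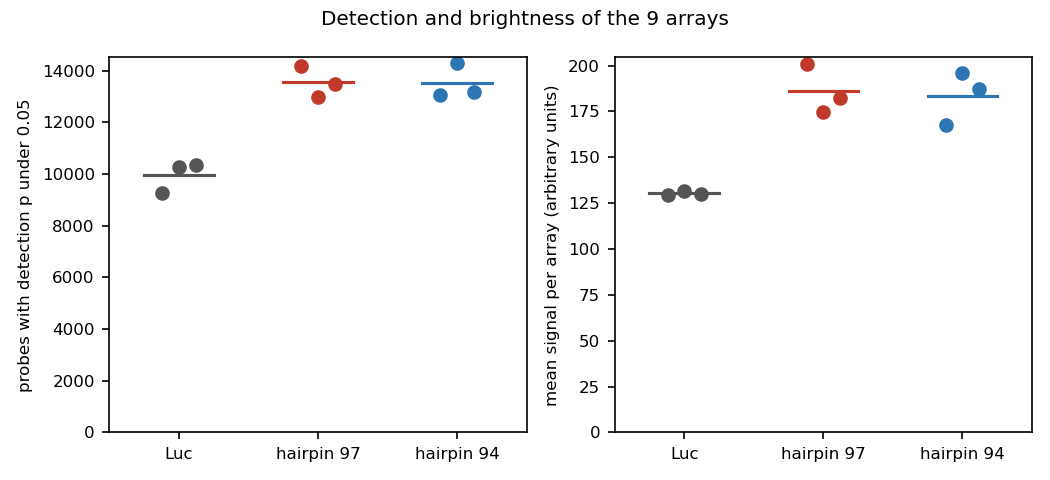
Number of probes with a detection p under 0.05 (left) and mean bead signal in arbitrary units (right) for each of the 9 arrays. Points are arrays and lines group means of 3. Both hairpin groups lie above all 3 Luc arrays in both panels.

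Hairpin 97 arrays differed from Luc arrays at 3902 of 10078 probes. After background correction and quantile normalization, 2410 probes (23.9%) were higher and 1492 (14.8%) lower with hairpin 97 at an adjusted p under 0.05 in the limma fit, with Benjamini-Hochberg adjustment over all of them. Taking for each gene its brightest probe, 1542 genes (21.8%) were higher and 1276 (18%) lower, and these 2 shares are the background against which each list of genes below is read. Changes beyond 2-fold were fewer, at 530 probes higher and 184 lower. The median log2 fold change was 0.10 over probes and 0.03 over genes, and the median standard error 0.18. Of the 2410 higher probes 810 had no detection on any Luc array. They are members only through the hairpin 97 arrays, so their direction was set by the rule. Their fitted changes depend on the background level, so those named here carry a lower bound ("at least") and no fold. Where the bound lies below 0 on the log2 scale, it does not show a rise. Throughout, a rise or fall is a log2 difference of normalized intensity, relative to the other probes of an array.

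The split between higher and lower calls depended on how the arrays were scaled. Scaling to the median of all probes moved the median change over genes to 1.06 and gave 8109 probes higher and 6 lower. Scaling to the probes detected on all 9 arrays moved it to -0.395 and gave 1139 higher and 5077 lower. Cyclic loess gave 1435 higher and 1609 lower. Under the main scaling and all 5 alternatives together (these 3, no background correction and the deposited series matrix), 798 genes were called higher each time and 6 lower each time. Scaling to the median of all probes alone left 6 probes lower, so no more than 6 genes could be lower each time. The split of 798 to 6 therefore does not show that rises were firmer than falls. Nor does the turn or lost call of a fall under that scaling, here or below, rank falls against rises. The 6 were Acyp2, Cebpg, Klf10, Pdia5, Pyurf and Setd4. In the fit to all member probes, 1106 of the 6047 probes detected on all 6 arrays were called higher and 1381 lower. Among these brighter probes the lower calls were thus the more numerous. A further 1163 probes were detected on all 3 hairpin 97 arrays and on 0 Luc arrays, against 14 the other way.

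The Luc arrays were also the more variable. The median standard deviation of a probe within a group was 0.25 for Luc, 0.13 for hairpin 97 and 0.17 for hairpin 94 on the log2 scale. Pearson correlations over the member probes, given as a description of arrays that share the same probes, were 0.955 to 0.961 between Luc arrays, 0.989 to 0.99 between hairpin 97 arrays and 0.925 to 0.942 between hairpin 97 and Luc. Leaving out any 1 hairpin 97 array lowered the number of probes called from 3902 to between 2725 and 2789, and leaving out any 1 Luc array gave 3816 to 4114. Where a list's count moved by more than 1.5 times without any 1 of the 6 arrays, the range or the value without that array is given with it.

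The neutrophil secondary granule and maturation genes were the list with the largest share of higher calls among the lists with at least 12 measured genes. Of 22 measured genes 14 rose and 2 fell. Their median log2 fold change came to 0.64, and to 0.52 when 2 genes without detection in Luc were put at their bound, against 0.03 over all genes, and it stayed above 0 under the 5 other scalings (0.26 to 1.77). Without any 1 of the 6 arrays the list had 10 to 13 higher and 1 to 2 lower. Of the 14 genes, 9 were called higher under every scaling. Against the same Luc arrays hairpin 94 had 15 higher and 1 lower in this list.

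Camp encodes the precursor of the antimicrobial peptide cathelicidin. Its normalized log2 intensity was 5.25, 4.77 and 6.31 on the Luc arrays, where it was detected on 2 of 3, and 8.77, 8.71 and 8.27 on the hairpin 97 arrays. All hairpin 97 arrays lay well above all Luc arrays, and the rise of 3.14 (SE 0.32, adjusted p = 0.000298) was the largest of any member probe. Ngp, neutrophilic granule protein, stood at 8.03, 7.58 and 7.73 in Luc and 9.96, 9.77 and 9.58 with hairpin 97. The groups were apart and Ngp rose by 1.99 (SE 0.17, adjusted p = 0.000229). S100a9, a subunit of the calcium-binding protein calprotectin, stood at 7.64, 8.14 and 8.29 in Luc and at 9.97, 9.98 and 9.99 with hairpin 97. It rose by 1.96 (SE 0.18, adjusted p = 0.000241), with hairpin 97 arrays almost identical to each other and all above Luc. Its partner S100a8 rose by 0.95 (SE 0.14, adjusted p = 0.001), from 11.80, 12.02 and 11.83 to 12.95, 12.92 and 12.63.

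Lcn2 encodes lipocalin 2, a siderophore-binding protein of specific granules. It read 8.67, 8.63 and 8.15 in Luc and 9.53, 9.64 and 9.74 with hairpin 97, a rise of 1.15 (SE 0.18, adjusted p = 0.00114) with no overlap. Ltf, the iron-binding lactoferrin, was detected on 0 Luc and 3 hairpin 97 arrays. It was at least 1.51-fold higher with hairpin 97 (mean log2 intensity 5.54 against 4.43, adjusted p = 0.000637), but under scaling to the probes detected on all arrays its log2 difference turned to -0.11. Both probes of Fcnb, the lectin ficolin B, passed, the brighter one with a rise of 1.13 (SE 0.21, adjusted p = 0.00277) and detection on 2 of 3 Luc arrays. Stfa1, a stefin that inhibits cysteine proteases, rose by 0.80 (SE 0.13, adjusted p = 0.00153). The 2 genes that fell did not share this course. One was Hp, haptoglobin, at -0.85 (adjusted p = 0.00175), whose other probes gave 0.09 and -0.11 and whose sign turned under scaling to the median of all probes. The other was Csf3r, at -0.89 (SE 0.29, adjusted p = 0.0325). It was detected on 2 Luc and 2 hairpin 97 arrays, and the groups overlapped. Hairpin 94 gave -0.26 for Csf3r against the same Luc arrays (adjusted p = 0.503). The lysozyme Lyz2 did not pass at its bright probe (0.25, adjusted p = 0.203), while its dim probe, undetected in Luc, did (adjusted p = 0.00593).

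A marker list of mature neutrophils, which shares members with the granule list, was partly silent in both groups. Of 7 such markers with a probe 3 had a signal above background on 3 or more of the 6 arrays, all of them granule genes already described (Ltf, Camp and Ngp). The summed level of the 7 was 320.4 to 433.9 on Luc arrays and 1220 to 1561 on hairpin 97 arrays, a sum that holds the rises of these same genes. Mmp8 and Mmp9, late granule proteases, were detected on 0 of the 6 arrays, and the receptor Cxcr2 on 1 array of each group. In bulk RNA, more (or fewer) cells of a type and more (or less) RNA per cell cannot be told apart. The part of admixed neutrophils in these rises was not tested.

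The promoters of leading genes of the secondary granule and maturation list are shown because C/EBP factors are known to act at this gene class. RefSeq windows (GRCm38.p6) run from 250 bases before to 50 bases after the annotated start, and capitals mark matches to TTGCNNAA on either strand, a motif of the kind C/EBP proteins bind.
Ngp (chr9:110419558-110419857, forward strand): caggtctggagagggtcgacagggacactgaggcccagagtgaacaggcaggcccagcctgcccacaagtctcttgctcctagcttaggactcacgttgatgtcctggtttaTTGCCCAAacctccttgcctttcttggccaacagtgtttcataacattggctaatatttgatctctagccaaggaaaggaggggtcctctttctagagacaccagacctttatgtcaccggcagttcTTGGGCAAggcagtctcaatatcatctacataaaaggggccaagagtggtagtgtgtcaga
Ltf (chr9:111019042-111019341, forward strand): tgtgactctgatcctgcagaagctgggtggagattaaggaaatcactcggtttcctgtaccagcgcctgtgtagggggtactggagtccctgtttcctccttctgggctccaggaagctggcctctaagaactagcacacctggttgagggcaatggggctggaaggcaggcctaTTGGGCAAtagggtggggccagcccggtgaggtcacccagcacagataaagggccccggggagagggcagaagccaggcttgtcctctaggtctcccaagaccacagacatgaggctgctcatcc
S100a9 (chr3:90695672-90695971, reverse strand): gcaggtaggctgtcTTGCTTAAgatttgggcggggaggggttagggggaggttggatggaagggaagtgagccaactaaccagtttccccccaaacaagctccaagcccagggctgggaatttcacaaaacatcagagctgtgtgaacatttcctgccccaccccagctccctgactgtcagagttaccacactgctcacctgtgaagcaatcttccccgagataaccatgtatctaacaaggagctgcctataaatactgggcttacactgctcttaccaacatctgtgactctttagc
Camp (chr9:109849407-109849706, reverse strand): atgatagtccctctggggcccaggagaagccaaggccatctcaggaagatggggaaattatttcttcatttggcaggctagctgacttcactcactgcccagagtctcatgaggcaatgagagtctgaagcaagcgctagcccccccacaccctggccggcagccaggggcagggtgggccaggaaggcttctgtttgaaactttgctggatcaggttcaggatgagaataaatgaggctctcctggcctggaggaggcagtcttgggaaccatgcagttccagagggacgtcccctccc
Ngp had 2 matches, Ltf and S100a9 had 1 each, and Camp, the gene with the largest rise, had 0 in this window. Of the 22 measured genes of the list 20 had a window and 7 of these held a match, as did 3547 of all 32851 windows of the same length (10.8%). This was the only motif searched, and matches are a description of the letters in these windows.

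**Figure D2:**
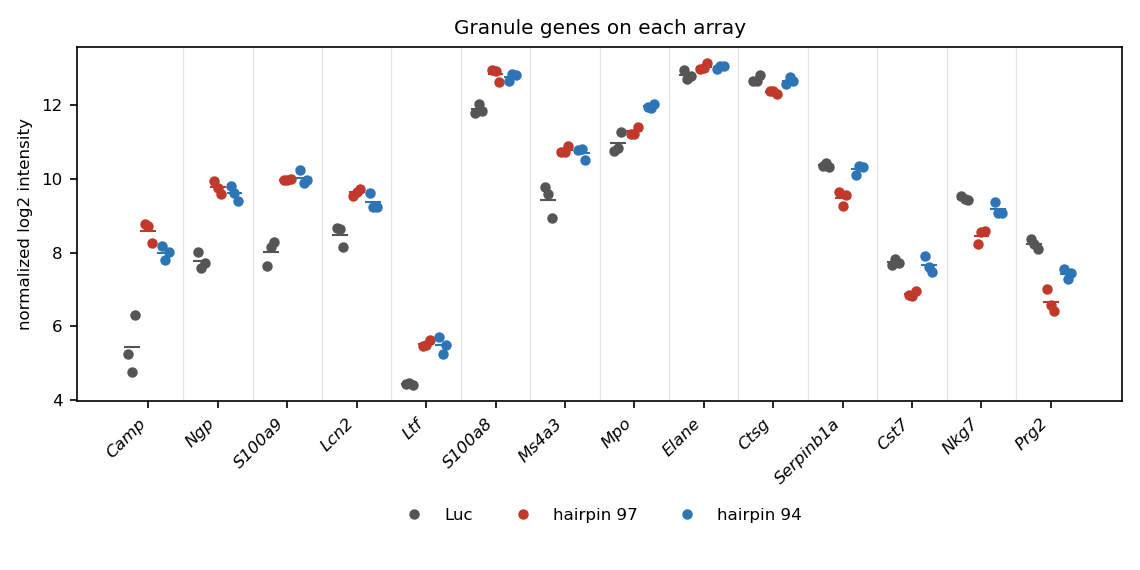
Normalized log2 intensity of 14 genes on each array, taken from the secondary granule and maturation list, the primary granule list and the mast cell, basophil and eosinophil list. Points are arrays and short lines group means of 3 arrays for Luc, hairpin 97 and hairpin 94. From Camp to Ms4a3 the hairpin 97 points lie above Luc, and from Serpinb1a to Prg2 below it.

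The primary granule list, which mixes granule enzymes with other genes, did not follow. Of 15 measured, 2 rose (Ms4a3 and Plac8) and 6 fell. The 6 were Calr, Cst7, Hdc, Igfbp4, Nkg7 and Serpinb1a. The granule enzymes Mpo, Elane, Prtn3 and Ctsg did not pass in the main fit, Ctsg narrowly (-0.35, adjusted p = 0.0503). Without background correction and in the series matrix these enzymes did pass, Mpo and Elane as higher, Prtn3 and Ctsg as lower. Prtn3 also passed as lower under scaling to the probes detected on all arrays. Under scaling to the median of all probes they all passed as higher. The median was -0.25 and ranged over -0.34 to 1.11 in the other scalings, turning positive under scaling to the median of all probes. Mpo, myeloperoxidase, read 10.76, 10.85 and 11.28 in Luc and 11.23, 11.23 and 11.40 with hairpin 97, with a difference of 0.32 that did not pass (adjusted p = 0.122). It passed, at 0.48 (adjusted p = 0.0181), without Luc replicate 3, and 1 of its 3 other probes passed with 0.93. Elane, neutrophil elastase, differed by 0.23 (adjusted p = 0.184), and Prtn3, proteinase 3, by -0.25 (adjusted p = 0.148). These serine proteases were among the brightest probes on all arrays, with Elane near 12.82 on the log2 scale in Luc.

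Members of the primary granule list moved in both directions, with 2 to 3 higher and 4 to 5 lower without any 1 of the 6 arrays. Ms4a3, a membrane protein of granulocyte progenitors, rose by 1.36 (SE 0.21, adjusted p = 0.0011) from 9.78, 9.58 and 8.93 in Luc to 10.73, 10.74 and 10.90, and the groups did not overlap. Serpinb1a, an inhibitor of the granule proteases, read 10.35, 10.44 and 10.31 in Luc and 9.65, 9.26 and 9.56 with hairpin 97. It fell by 0.88 (SE 0.15, adjusted p = 0.00163), while hairpin 94 gave -0.10 against the same Luc arrays, and the direct contrast of the hairpins did not pass (-0.77, adjusted p = 0.0702). Cst7, the cystatin that restrains cathepsins of granules, fell by 0.86 (SE 0.14, adjusted p = 0.00168), and Nkg7, a membrane protein of cytotoxic granules, by 1.00 (SE 0.15, adjusted p = 0.00107). The hairpin 94 values for these were -0.075 and -0.29, and the difference between the hairpins did not pass for either (adjusted p = 0.0641 and 0.112). All 3 falls changed sign under scaling to the median of all probes.

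The phagocyte oxidase list was small but changed at every measured member, with 4 of 6 higher and 2 lower (2 to 4 higher and 2 lower without any 1 of the 6 arrays, 2 higher without Luc replicate 3). This enzyme makes superoxide in neutrophils. Ncf1, its organizer subunit p47phox, read 4.44, 4.39 and 4.20 in Luc, with 0 of 3 arrays detected, and 6.20, 6.27 and 6.25 with hairpin 97. It was at least 2.45-fold higher (adjusted p = 0.000229). Hvcn1, the proton channel that balances the charge of the oxidase, rose by 1.07 (SE 0.18, adjusted p = 0.0017). Rac1, a small GTPase that activates the oxidase and remodels actin, fell the most of this list, from 6.93, 6.89 and 6.48 to 5.05, 5.29 and 4.87. Its fall of 1.70 (SE 0.19, adjusted p = 0.000388) kept its direction under every scaling, and the arrays of the groups were apart. Cyba, the membrane subunit p22phox, fell by 0.61 (SE 0.13, adjusted p = 0.00568) but turned positive under scaling to the median of all probes.

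Cathepsins, the proteases of lysosomes, and the cystatins that inhibit them gave 7 higher and 3 lower of 15, with a median of 0.68 (0.14 to 1.60 in the other scalings). This list shares members with those above. Stfa1 and Stfa2, both called higher, are also in the secondary granule list. Cst7, called lower, and Ctsg are also in the primary granule list. Cstdc5, a stefin-like cystatin, read 7.05, 7.59 and 7.05 in Luc and 9.17, 9.17 and 8.53 with hairpin 97, a rise of 1.73 (SE 0.21, adjusted p = 0.000466). Stefin genes lie in a family of close copies, so a probe may read several of them. Ctsb, the lysosomal cathepsin B, rose by 1.02 (SE 0.17, adjusted p = 0.00157). Ctsc, the dipeptidase that activates granule serine proteases, fell by 0.92 (SE 0.15, adjusted p = 0.0015), with 0.21 from its other probe. Cstb, cystatin B, fell by 0.90 (SE 0.13, adjusted p = 0.00103), and the falls of Ctsc and Cstb turned under scaling to the median of all probes. Of lysosome, V-ATPase and autophagy genes 12 rose and 9 fell of 46, close to the shares of all genes. The sialidase Neu1 (0.89) and the V-ATPase subunit Atp6v1b2 (0.95) rose, while Atp6v0b (-0.92) fell except under scaling to the median of all probes.

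**Figure D3:**
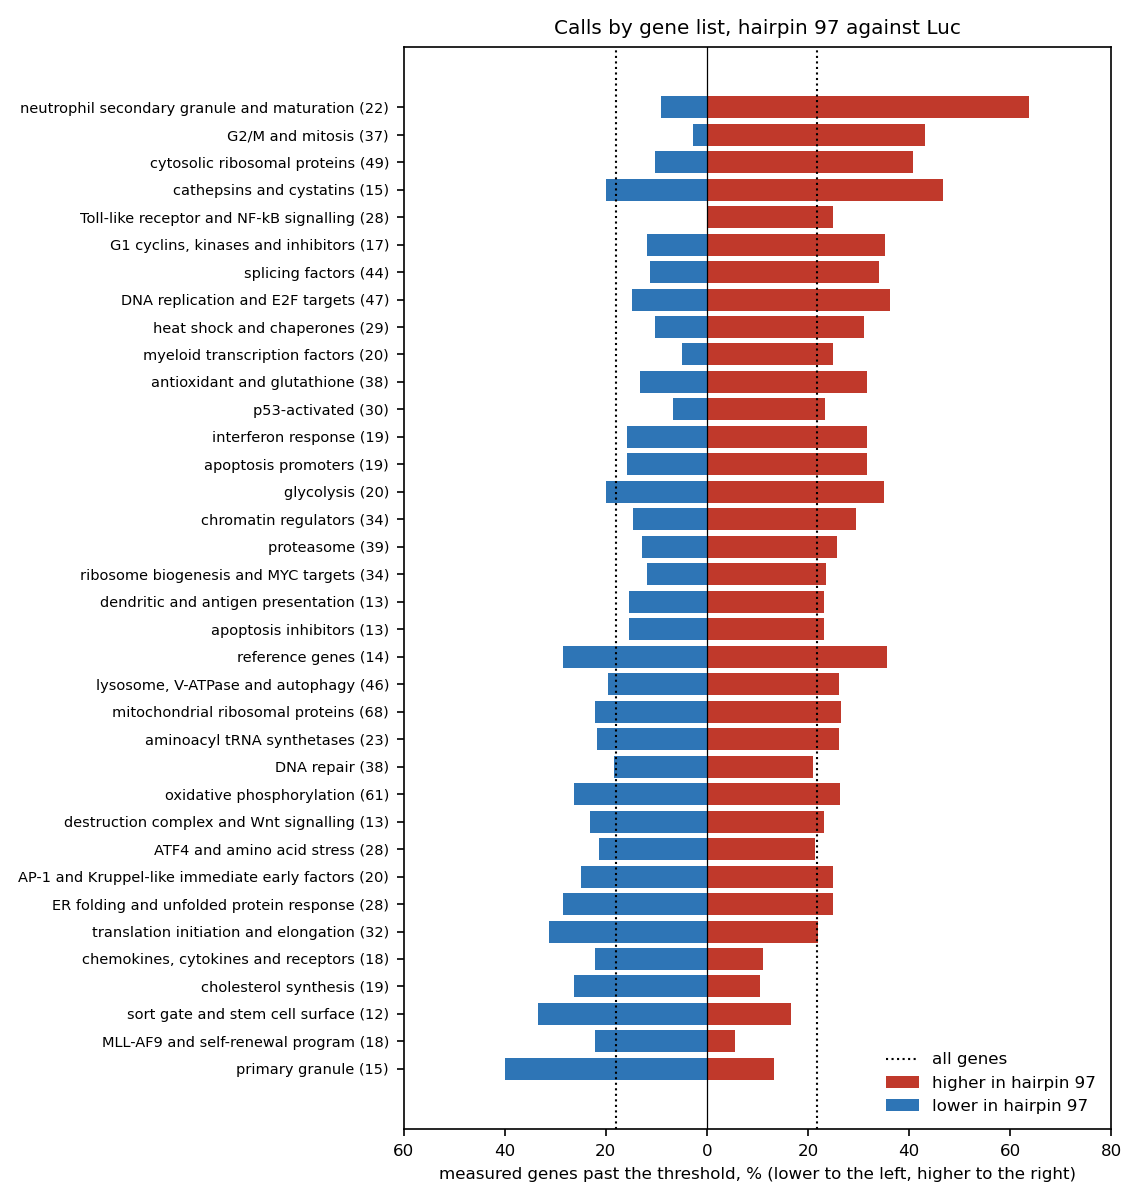
Share of measured genes past the threshold in each list with at least 12 measured genes (number in brackets), in percent, higher to the right and lower to the left of 0. Dotted lines mark all genes, 21.8% higher and 18% lower. The secondary granule list has the longest bar to the right and the primary granule list the longest to the left. The lower genes of the primary granule list do not include Mpo, Elane, Prtn3 or Ctsg.

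Among 20 myeloid transcription factors 5 rose and 1 fell, with 2 rising without hairpin 97 replicate 4. Cebpg, a C/EBP family member that lacks an activation domain and dimerizes with its relatives and with ATF4, had the largest fall of all probes measured. It read 8.94, 8.93 and 8.64 in Luc and 6.80, 7.02 and 6.65 with hairpin 97, 2 groups far apart. The fall of 2.02 (SE 0.17, adjusted p = 0.000229) passed under every scaling. Hairpin 94 gave -0.97, a smaller change by the direct contrast (-1.04, SE 0.17, adjusted p = 0.0495). Id1, an inhibitor of helix-loop-helix factors, rose by 0.81 (SE 0.22, adjusted p = 0.0145). Spi1, which encodes the granulocyte and monocyte factor PU.1, gave 0.75 and did not pass (adjusted p = 0.0826), but it did without Luc replicate 2 (1.19, adjusted p = 0.0015).

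The program of MLL-AF9 and self-renewal gave 1 higher and 4 lower of 18 (0 to 1 higher and 2 to 5 lower without any 1 of the 6 arrays, with 0 higher without hairpin 97 replicate 4 and 2 lower without hairpin 97 replicate 4), with a median of -0.05 (-0.65 to 0.81 in the other scalings). Hoxa5, a homeobox gene of the HOXA cluster, read 8.99, 9.11 and 9.01 in Luc and 7.79, 7.79 and 7.87 with hairpin 97. It fell by 1.22 (SE 0.15, adjusted p = 0.000501), with no overlap, but turned positive under scaling to the median of all probes. Eya1, a transcriptional coactivator and phosphatase, fell by 0.69 (SE 0.16, adjusted p = 0.00807) at its brightest probe, while another probe gave 0.26 and the last, undetected on all Luc arrays, was called higher (adjusted p = 0.0154). The mean of its probes gave 0.026. Hoxa9 and Meis1, the central pair of this program, differed by 0.025 (adjusted p = 0.927) and 0.068 (adjusted p = 0.732).

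Surface genes of stem cells and of the sort gate gave 2 higher and 4 lower of 12 (1 to 2 higher and 2 to 4 lower without any 1 of the 6 arrays, with 1 higher without Luc replicate 1 and 2 lower without hairpin 97 replicate 4). The sort selected on the proteins of several of them. Csf3r, 1 of the 4 lower, is given above with the secondary granule list. Fcgr3, a low-affinity Fc gamma receptor related to the FcyRII of the gate, rose by 0.91 (SE 0.17, adjusted p = 0.00242) from 6.99, 7.40 and 7.53 to 8.20, 8.34 and 8.12. Fcgr2b, a gene of FcyRII itself, rose by 0.44 (SE 0.14, adjusted p = 0.0304) at its brightest probe. Its other probes gave 0.89, which passed, and 0.57, which did not. Cd93, a lectin-like receptor of progenitors, read 9.09, 9.05 and 9.34 in Luc and 8.34, 8.36 and 8.19 with hairpin 97, a fall of 0.86 (SE 0.16, adjusted p = 0.00312) with -0.08 from its other probe. Il3ra, the interleukin 3 receptor alpha chain, fell by 0.78 (SE 0.21, adjusted p = 0.0137), and both falls turned under scaling to the median of all probes. Kit, the receptor used for the gate, differed by -0.48 (adjusted p = 0.0437), a call that turned positive under scaling to the median of all probes and was lost without Luc replicate 2 (-0.36, adjusted p = 0.12) or without hairpin 97 replicate 4 (-0.53, 0.0761), 5 (-0.50, 0.0941) or 6 (-0.41, 0.142).

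The list of mast cell, basophil and eosinophil genes had 2 higher and 4 lower of 7 (0 to 2 higher and 3 to 4 lower without any 1 of the 6 arrays, with 0 higher without hairpin 97 replicate 5). Prg2, major basic protein, read 8.36, 8.24 and 8.10 in Luc and 7.01, 6.58 and 6.41 with hairpin 97. It fell by 1.56 (SE 0.17, adjusted p = 0.000332), and every hairpin 97 array lay below every Luc array, with hairpin 94 in between at 7.56, 7.30 and 7.44. Epx, eosinophil peroxidase, fell by 0.72 (SE 0.13, adjusted p = 0.00253) and was detected on 3 Luc and 1 hairpin 97 arrays. Both kept their sign under every scaling. The members called higher were Cpa3, a carboxypeptidase of mast cells, and Prg3, a homolog of Prg2 in eosinophil granules, each undetected on all Luc arrays and detected on 3 hairpin 97 arrays. Cpa3 was at least 1.31-fold higher (adjusted p = 0.0166). Prg3 was called higher (adjusted p = 0.0393), but its log2 bound was -0.017, so the bound does not show a rise. Both turned negative under scaling to the probes detected on all arrays. Cpa3 lost its call without hairpin 97 replicate 5 (adjusted p = 0.0623), and Prg3 kept its call without Luc replicate 3 but lost it without any 1 of the other 5 arrays (adjusted p = 0.0543 to 0.1115). The marker sum of mast cells, basophils and eosinophils was 399.2 to 468.5 on Luc and 206.7 to 255.2 on hairpin 97 arrays. Prg2, the brightest of these markers in Luc, makes up most of the fall of the sum, and Cpa3 of the same sum was higher. Mcpt8, Fcer1a and Ms4a2 were detected on 0 of the 6 arrays. The part of admixed cells in these falls was not tested.

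Genes of mitosis were called higher more often than genes as a whole. Of 37 measured genes of the G2/M list 16 rose and 1 fell, with a median of 0.47, and of 0.22 when 4 genes without detection in Luc were put at their bound (0.049 to 1.51 in the other scalings). Without any 1 of the 6 arrays the list had 12 to 17 higher and 0 to 2 lower. Ncapd2, a subunit of the condensin complex that compacts chromosomes, read 6.91, 6.90 and 7.29 in Luc and 7.76, 8.04 and 8.30 with hairpin 97. It rose by 1.00 (SE 0.17, adjusted p = 0.00178), its dim other probe passed too (adjusted p = 0.023), and the arrays were apart. Nusap1, which bundles spindle microtubules, rose by 0.91 (SE 0.17, adjusted p = 0.00305), and Spc25, a kinetochore protein, by 0.79 (SE 0.14, adjusted p = 0.00225). Top2a, the topoisomerase that untangles sister chromatids, rose by 0.95 (SE 0.15, adjusted p = 0.00132), with -0.16 and 0.74 from its other probes. Plk1, a mitotic kinase, gave -0.15 (adjusted p = 0.384), and Cdc20, which activates the anaphase-promoting complex, 0.47 (adjusted p = 0.0748), which passed without Luc replicate 3 (0.70, adjusted p = 0.00405) and at 2 of its 3 other probes. Hairpin 94 had 6 higher and 4 lower against the same Luc arrays, and 0 members of the list passed the contrast between the hairpins.

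DNA replication genes split. Of 47 measured, 17 rose and 7 fell, with a median of 0.27 (-0.002 to 1.46 in the other scalings), and 11 rose without hairpin 97 replicate 5. Rrm2, the small subunit of ribonucleotide reductase, read 6.27, 5.11 and 4.91 in Luc and 7.04, 7.11 and 6.93 with hairpin 97. It rose by 1.60 (SE 0.30, adjusted p = 0.0027), its other probe by 0.95, and no arrays overlapped. Uhrf1, which guides maintenance of DNA methylation, rose by 0.92 (SE 0.15, adjusted p = 0.00148), and Mcm6, a subunit of the replicative helicase, by 0.83 (SE 0.13, adjusted p = 0.00135). Cdc6, which loads that helicase, was undetected on all Luc arrays and at least 1.84-fold higher (adjusted p = 0.000912). Mcm2 (-0.11, adjusted p = 0.555) and Mcm4 (0.31, adjusted p = 0.1), subunits of the same helicase, did not pass.

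Regulators of the G1 phase gave 6 higher and 2 lower of 17 (4 to 7 higher and 1 to 4 lower without any 1 of the 6 arrays). Ccnd2, cyclin D2, had the largest fall of them. It read 6.43, 6.71 and 6.92 in Luc, 5.35, 5.43 and 5.35 with hairpin 97 and 6.84, 6.32 and 6.98 with hairpin 94. Only the hairpin 97 arrays lay apart, with a fall of 1.31 (SE 0.19, adjusted p = 0.000943) against Luc and a difference of -1.34 (SE 0.19, adjusted p = 0.023) in the direct contrast of the hairpins. The other probe of Ccnd2 gave -0.07 against Luc. Its partner Cdk4 rose by 0.83 (SE 0.18, adjusted p = 0.00549), with a fall of 0.54 at its other probe, which passed as well, so the probes of Cdk4 disagree. Rb1, the retinoblastoma protein, rose by 0.78 (SE 0.17, adjusted p = 0.00575).

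The lists of pathways that the target is known to restrain were read against the same shares of all genes. Of 7 measured beta-catenin targets 0 rose and 1 fell at the brightest probe, the latter being Ccnd2. Birc5 did not pass at its brightest probe (-0.19, adjusted p = 0.385). Its other probes gave -0.15, which did not pass, and 0.44 (adjusted p = 0.0414), which passed under every scaling. Axin2, a feedback target of beta-catenin, gave -0.37 (adjusted p = 0.312), with detection on 1 Luc and 2 hairpin 97 arrays. The list of targets had 1 to 2 lower calls without any 1 of the 6 arrays. Of 13 genes of the destruction complex and Wnt signalling 3 rose and 3 fell (2 to 3 higher and 1 to 4 lower without any 1 of the 6 arrays, with 1 lower without hairpin 97 replicate 5). Ctnnb1, beta-catenin itself, read 5.05, 5.84 and 5.12 in Luc, detected on 2 of 3 arrays, and 6.43, 6.66 and 6.40 with hairpin 97. It rose by 1.16 (SE 0.21, adjusted p = 0.00265), its other probe by 1.11, and the groups did not overlap. Btrc, the ubiquitin ligase subunit that recognizes phosphorylated beta-catenin, fell by 0.63 (SE 0.16, adjusted p = 0.0103) but turned positive under scaling to the median of all probes.

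Of 30 genes that p53 activates, 7 rose and 2 fell, against 21.8% and 18% of all genes, and their median was -0.016 (-0.38 to 1.08 in the other scalings). The list had 4 to 8 higher and 1 to 3 lower without any 1 of the 6 arrays, with 4 higher without hairpin 97 replicate 4 and 1 lower without Luc replicate 2, and hairpin 94 had 6 higher and 3 lower against the same Luc arrays. Cdkn1a, the cell cycle inhibitor p21, read 8.01, 7.96 and 7.85 in Luc and 7.76, 7.68 and 7.58 with hairpin 97. All hairpin 97 arrays lay slightly below Luc, and the difference of -0.27 did not pass (adjusted p = 0.107). Mdm2, the ubiquitin ligase of p53, differed by -0.37 (adjusted p = 0.0425) at its brightest probe and by -0.79 at its other. The call of the brightest probe turned positive under scaling to the median of all probes and was lost without Luc replicate 2 (-0.34, adjusted p = 0.0905) or 3 (-0.36, 0.0703) and without hairpin 97 replicate 4 (-0.39, 0.0906), 5 (-0.43, 0.0629) or 6 (-0.30, 0.152). Ccng1, cyclin G1, gave -0.37 (adjusted p = 0.127) at its brightest probe and rises of 0.85 and 1.23 at its others, so its direction cannot be told.

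Among members of the p53 list called higher, 3 were undetected on all Luc arrays. Wrap53, which shares its locus with Trp53, was at least 1.24-fold higher (adjusted p = 0.00864). Rrm2b, the p53-induced subunit of ribonucleotide reductase, was at least 1.05-fold higher (adjusted p = 0.0027), and both turned negative under scaling to the probes detected on all arrays. Zmat3, a zinc finger protein, read 4.32, 4.28 and 4.42 in Luc, 5.15, 4.94 and 4.78 with hairpin 97 and 6.08, 6.31 and 6.26 with hairpin 94. Its bound with hairpin 97 was 1.005-fold, its sign turned under that scaling and cyclic loess, and hairpin 97 lay below hairpin 94 (difference -1.26, adjusted p = 0.012). Sesn1, sestrin 1, fell by 0.93 (SE 0.15, adjusted p = 0.00125), while its other probe gave 0.07, with a turn to positive under scaling to the median of all probes.

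Apoptosis promoters gave 6 higher and 3 lower of 19 (3 higher without hairpin 97 replicate 4). Bad, a BH3-only protein that opposes BCL2 and BCLXL, read 6.75, 6.42 and 6.18 in Luc and 7.33, 7.42 and 7.89 with hairpin 97, a rise of 1.10 (SE 0.19, adjusted p = 0.00186) with no overlap. Casp9, the initiator caspase of the mitochondrial route, rose by 0.90 (SE 0.17, adjusted p = 0.00325) although its other probe gave -0.15, and Casp8, that of death receptors, by 0.69 (SE 0.15, adjusted p = 0.00478). Among 13 inhibitors of apoptosis 3 rose and 2 fell (1 to 4 higher and 1 to 2 lower without any 1 of the 6 arrays, with 1 higher without hairpin 97 replicate 5 and 1 lower without Luc replicate 1). Mcl1, a BCL2 relative needed by myeloid cells, read 5.90, 5.79 and 6.36 in Luc and 7.23, 7.42 and 7.31 with hairpin 97. It rose by 1.30 (SE 0.16, adjusted p = 0.000534), while Bag3, a cochaperone of HSP70, fell by 0.89 (SE 0.15, adjusted p = 0.00186) except under scaling to the median of all probes.

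Of the casein kinases 3 of 6 measured relatives of the target were higher and 2 lower. Csnk1d, casein kinase 1 delta, fell by 0.78 (SE 0.14, adjusted p = 0.00232) from 9.58, 9.37 and 9.39 to 8.53, 8.64 and 8.81, and 2 of its other probes passed as lower with -0.76 and -0.56 while the last gave 0.42. Of the 3 called higher, Csnk1g3, of the gamma branch, and Csnk2a1 were undetected on all Luc arrays, so their direction was set by the rule. Csnk1g3 was at least 1.63-fold higher (adjusted p = 0.00129) and Csnk2a1 at least 1.1-fold (adjusted p = 0.0428). Csnk2a2, detected on all 6 arrays, rose by 0.58 (adjusted p = 0.0437). The fall of Csnk1d turned under scaling to the median of all probes. Csnk1g3 and Csnk2a1 turned negative under scaling to the probes detected on all arrays. The kinases had 1 to 3 higher and 1 to 2 lower without any 1 of the 6 arrays, with 1 higher without Luc replicate 1 and 1 lower without hairpin 97 replicate 4.

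Cytosolic ribosomal proteins, too, were called higher more often than genes as a whole. Of 49 measured, 20 rose and 5 fell, with a median of 0.31 that stayed positive in the other scalings (0.24 to 1.70), and 17 rose under each of them. Without any 1 of the 6 arrays the list had 16 to 22 higher and 2 to 5 lower. These genes have many processed copies in the genome, so a probe can read more than 1. Rpl26, a protein of the large subunit, read 9.46, 9.43 and 9.64 in Luc and 10.87, 10.96 and 11.03 with hairpin 97, and rose by 1.44 (SE 0.13, adjusted p = 0.000229). Rpl12, also of the large subunit, rose by 1.12 (SE 0.12, adjusted p = 0.000298), and Rps21 and Rps16 of the small subunit rose by 1.12 (SE 0.13, adjusted p = 0.000425) and 1.01 (SE 0.15, adjusted p = 0.000973). Rps6, of the small subunit as well, did not pass (-0.26, adjusted p = 0.226). Hairpin 94 had 24 higher and 4 lower.

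Other lists of protein synthesis and energy had members in both directions. Mitochondrial ribosomal proteins gave 18 higher and 15 lower of 68 (13 to 18 higher and 8 to 14 lower without any 1 of the 6 arrays, with 8 lower without hairpin 97 replicate 6). Mrpl27 rose by 1.53 (SE 0.15, adjusted p = 0.000297) from 6.14, 6.23 and 6.54 to 7.86, 7.78 and 7.84, while Mrpl38, a subunit of the same particle, fell by 1.10 (SE 0.14, adjusted p = 0.00062) with -0.71 from its other probe. Oxidative phosphorylation gave 16 higher and 16 lower of 61 (12 to 16 higher and 6 to 12 lower without any 1 of the 6 arrays, with 6 lower without hairpin 97 replicate 6). Within complex I, Ndufb3 rose by 0.84 (SE 0.13, adjusted p = 0.0011) and Ndufc1 fell by 0.90 (SE 0.16, adjusted p = 0.00239), although the other probe of Ndufc1 rose by 0.74. Translation factors gave 7 higher and 10 lower of 32. Eif3a, the scaffold of initiation factor 3, read 5.92, 5.82 and 5.70 in Luc and 7.37, 7.30 and 7.42 with hairpin 97 and rose by 1.55 (SE 0.15, adjusted p = 0.000273), whereas Eif2b3, a subunit of the exchange factor for initiation factor 2, fell by 0.89 (SE 0.15, adjusted p = 0.00194). The falls of Mrpl38, Ndufc1 and Eif2b3 turned under scaling to the median of all probes.

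Tomm7, a small subunit of the translocase of the outer mitochondrial membrane, was among the largest rises, from 7.33, 7.34 and 6.88 to 8.84, 8.69 and 8.75 with a rise of 1.58 (SE 0.16, adjusted p = 0.000297). Splicing factors gave 15 higher and 5 lower of 44 (8 higher without hairpin 97 replicate 4). Prpf8, the core of the spliceosome, rose by 1.47 (SE 0.16, adjusted p = 0.000348), with 0.58 from its other probe. Hnrnpm, which binds pre-mRNA, rose by 1.18 (SE 0.14, adjusted p = 0.000463), and Hnrnpc, of the same class, fell by 0.88 (SE 0.16, adjusted p = 0.00253) except under scaling to the median of all probes, with -0.12 from its other probe. Of 39 proteasome genes 10 rose and 5 fell. Uchl5, a deubiquitinase of the proteasome, rose at all 4 of its probes, by 1.02 (SE 0.13, adjusted p = 0.000626) at the brightest and by 0.62 to 1.11 at the others.

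Genes of protein folding in the endoplasmic reticulum moved in both directions, with 7 higher and 8 lower of 28 (4 to 8 higher and 4 to 8 lower without any 1 of the 6 arrays, with 4 higher without hairpin 97 replicate 4 and 4 lower without hairpin 97 replicate 5). The largest changes were falls. Pdia5, a protein disulfide isomerase, read 7.42, 7.33 and 7.03 in Luc and 5.30, 5.13 and 5.47 with hairpin 97. It fell by 1.96 (SE 0.18, adjusted p = 0.000229), under every scaling, but its other probe gave 0.00. Dnajc10, a reductase of misfolded proteins, fell from 10.30, 10.26 and 10.26 to 8.41, 8.51 and 8.58, by 1.78 (SE 0.15, adjusted p = 0.000229) with no overlap and the same sign under every scaling. Pdia4, another isomerase, rose by 0.95 (SE 0.19, adjusted p = 0.00364), and Ppib, a prolyl isomerase of the same compartment, by 0.90 (SE 0.17, adjusted p = 0.00257).

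The ATF4 and amino acid stress list gave 6 higher and 6 lower of 28. Atf4, the factor that drives it, read 8.57, 8.59 and 8.40 in Luc and 9.31, 9.34 and 9.65 with hairpin 97. It rose by 0.91 (SE 0.19, adjusted p = 0.00472), and its other probe by 1.20. Asns, asparagine synthetase and a target of ATF4, rose by 0.84 (SE 0.16, adjusted p = 0.00288) with 0.23 from its other probe. Ddit3, the stress factor CHOP, went the other way, from 6.77, 7.27 and 7.20 to 5.56, 5.63 and 5.63, a fall of 1.47 (SE 0.19, adjusted p = 0.000633) with the same sign under every scaling. Trib3, a further target of ATF4 and CHOP, did not pass (0.19, adjusted p = 0.318). Transfer RNA synthetases gave 6 higher and 5 lower of 23 (3 to 6 higher and 2 to 6 lower without any 1 of the 6 arrays, with 3 higher without hairpin 97 replicate 6 and 2 lower without Luc replicate 2), with Aars up by 0.91 (adjusted p = 0.00424).

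Reference genes, often used as standards, changed in both directions. Actb, beta-actin, fell by 1.08 (SE 0.18, adjusted p = 0.00157) from 12.96, 12.88 and 13.07 to 11.81, 12.02 and 11.84, its other probes gave -1.49, -0.14 and 0.11, and it turned positive under scaling to the median of all probes. As a whole the list gave 5 higher and 4 lower of 14 (3 to 5 higher and 2 to 4 lower without any 1 of the 6 arrays, with 3 higher without Luc replicate 3 and 2 lower without hairpin 97 replicate 6). Gapdh did not pass (-0.19, adjusted p = 0.231), with a positive sign under scaling to the median of all probes.

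In Toll-like receptor and NF-kB signalling 7 of 28 genes rose and 0 fell, against 21.8% and 18% of all genes (6 to 9 higher and 0 to 2 lower without any 1 of the 6 arrays). Among those that rose were inhibitors of the pathway. Irak3, a kinase-dead relative that blocks receptor signalling, read 4.33, 4.38 and 5.0 in Luc, detected on 1 of 3 arrays, and 6.69, 6.48 and 5.90 with hairpin 97. It rose by 1.78 (SE 0.23, adjusted p = 0.000626). Nlrx1, a mitochondrial NLR protein that dampens the pathway, rose by 1.75 (SE 0.23, adjusted p = 0.000626) with detection on 2 of 3 Luc arrays. Ikbkb, the kinase that activates NF-kB, was undetected on all Luc arrays and at least 1.69-fold higher (adjusted p = 0.00222).

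Of 18 chemokines, cytokines and receptors 2 rose and 4 fell (0 to 2 higher and 3 to 5 lower without any 1 of the 6 arrays, with 0 higher without hairpin 97 replicate 5). The 2 called higher, Ccrl2 and Tnfrsf1b, were undetected on all Luc arrays. Their log2 bounds were -0.17 and -0.25, so the bounds do not show a rise. Ccl4, a chemokine of activated myeloid cells, read 7.07, 7.16 and 6.59 in Luc, 5.51, 5.66 and 4.94 with hairpin 97 and 6.90, 7.05 and 7.35 with hairpin 94. The hairpin 97 arrays lay below both other groups, with a fall of 1.57 (SE 0.22, adjusted p = 0.00087) against Luc. Ccl9, a related chemokine, fell by 1.11 (SE 0.13, adjusted p = 0.000392) against Luc, except under scaling to the median of all probes. Immediate early factors gave 5 higher and 5 lower of 20 (3 to 7 higher and 5 to 6 lower without any 1 of the 6 arrays, with 3 higher without hairpin 97 replicate 6). Klf10, a Kruppel-like factor induced by TGF beta, fell from 6.33, 5.51 and 5.82 to 4.63, 4.35 and 4.49, by 1.40 (SE 0.20, adjusted p = 0.000802), and passed under every scaling. Junb, an AP-1 subunit, fell by 1.18 (SE 0.15, adjusted p = 0.00062) but turned under scaling to the median of all probes.

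Interferon response genes gave 6 higher and 3 lower of 19, but 1 higher without hairpin 97 replicate 5. Zbp1, a sensor of left-handed nucleic acid, fell by 1.16 (SE 0.16, adjusted p = 0.000691) with the same sign under every scaling. Antioxidant and glutathione genes gave 12 higher and 5 lower of 38 (7 to 14 higher and 3 to 5 lower without any 1 of the 6 arrays, with 7 higher without hairpin 97 replicate 5 and 3 lower without hairpin 97 replicate 5). Mgst2, a membrane glutathione transferase, rose by 1.02 (SE 0.15, adjusted p = 0.000938) and Sod1, cytosolic superoxide dismutase, by 0.94 (SE 0.14, adjusted p = 0.0011). Glycolysis gave 7 higher and 4 lower of 20 (3 to 7 higher and 2 to 4 lower without any 1 of the 6 arrays, with 3 higher without hairpin 97 replicate 4 and 2 lower without Luc replicate 1). Of the 7, Slc16a3 and Slc2a3 were undetected on all Luc arrays and had log2 bounds of -0.11 and -0.067, which do not show a rise. Aldoa, aldolase A, read 8.38, 8.61 and 8.65 in Luc and 10.12, 10.25 and 9.87 with hairpin 97 and rose by 1.53 (SE 0.17, adjusted p = 0.000331). Pgk1, phosphoglycerate kinase, rose by 0.95 (SE 0.17, adjusted p = 0.00246) and its other probe, undetected on all Luc arrays, passed too (at least 1.2-fold, adjusted p = 0.00938). In cholesterol synthesis 2 rose and 5 fell of 19 (2 to 4 higher and 3 to 5 lower without any 1 of the 6 arrays, with 3 lower without hairpin 97 replicate 5). Cyp51, which removes a methyl group from lanosterol, fell by 0.82 (SE 0.19, adjusted p = 0.00692), turning positive under scaling to the median of all probes.

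DNA repair gave 8 higher and 7 lower of 38 (5 to 14 higher and 4 to 8 lower without any 1 of the 6 arrays, with 5 higher without hairpin 97 replicate 4 and 4 lower without hairpin 97 replicate 4). Mgmt, which removes methyl groups from guanine, rose by 1.48 (SE 0.18, adjusted p = 0.000445) with detection on 2 of 3 Luc arrays and its other probe, undetected in Luc, passed as well (at least 1.43-fold, adjusted p = 0.00201). Trp53bp1, which marks double strand breaks, fell by 1.44 (SE 0.13, adjusted p = 0.000229). Heat shock genes and chaperones gave 9 higher and 3 lower of 29 (4 to 11 higher and 3 to 4 lower without any 1 of the 6 arrays, with 4 higher without hairpin 97 replicate 4). Chromatin regulators had 10 and 5 of 34 (6 to 10 higher and 3 to 6 lower without any 1 of the 6 arrays, with 6 higher without hairpin 97 replicate 6 and 3 lower without hairpin 97 replicate 4). Ribosome biogenesis and MYC targets had 8 and 4 of 34 (6 to 7 higher and 2 to 4 lower without any 1 of the 6 arrays, with 2 lower without Luc replicate 2). Antigen presentation gave 3 and 2 of 13 (1 to 3 higher and 2 lower without any 1 of the 6 arrays, with 1 higher without hairpin 97 replicate 5), and polyamine and methionine salvage 1 and 1 of 10 (0 to 3 higher and 1 lower without any 1 of the 6 arrays, with 0 higher without hairpin 97 replicate 5). Of 8 monocyte and macrophage genes 0 rose and 0 fell (0 to 1 higher and 0 to 1 lower without any 1 of the 6 arrays). Lists of other lineages had few measured members, with 0 higher and 1 lower of 5 for T and NK cells (1 to 2 lower without any 1 of the 6 arrays), 0 higher and 0 lower of 3 for B cells, 1 higher and 1 lower of 5 for erythroid and heme genes (1 to 2 higher without any 1), 1 higher and 0 lower of 2 for megakaryocytes and 1 higher and 1 lower of 3 for stroma. The lower gene of the T and NK cell list was Nkg7, which is also in the primary granule list.

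Across all genes, without regard to lists, the 10 largest rises that were detected on all 6 arrays, had groups apart and kept their sign under every scaling ran from Ngp (1.99) to Tomm7 (1.58). Cept1, an enzyme of phospholipid synthesis, read 6.00, 4.99 and 5.39 in Luc and 7.36, 7.47 and 7.25 with hairpin 97, and rose by 1.90 (SE 0.22, adjusted p = 0.000401). Olfm4, an olfactomedin of neutrophil specific granules, rose from 6.95, 6.53 and 6.62 to 8.72, 8.20 and 8.42, by 1.75 (SE 0.21, adjusted p = 0.000463). Hmgn5, a nucleosome-binding protein, rose by 1.71 (SE 0.21, adjusted p = 0.000463), and Psenen, a subunit of gamma secretase, by 1.59 (SE 0.20, adjusted p = 0.000541). The other rises of this set are described with their lists or, for Tgm2, with the hairpins.

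The 10 largest falls by the same rule ran from Cebpg (-2.02) to Slc1a3 (-1.60). Wdr13, a WD repeat protein, read 7.28, 7.42 and 7.13 in Luc and 5.77, 5.68 and 5.27 with hairpin 97, and fell by 1.70 (SE 0.18, adjusted p = 0.000305). Pip5k1a, a lipid kinase that makes PI(4,5)P2, fell by 1.68 (SE 0.23, adjusted p = 0.000728), and its other probe passed with -1.05. Emilin2, a matrix glycoprotein, fell by 1.65 (SE 0.18, adjusted p = 0.000341) and Mfge8, a bridge for the uptake of dying cells, by 1.64 (SE 0.16, adjusted p = 0.000273), but their other probes gave 0.09 and 0.04. Slc1a3, a glutamate transporter, fell from 6.68, 6.35 and 6.58 to 5.03, 5.09 and 4.70, by 1.60 (SE 0.19, adjusted p = 0.000463). Stxbp5l, a syntaxin-binding protein, fell by 1.63 (SE 0.19, adjusted p = 0.000436), with -0.48 from its other probe. Under scaling to the median of all probes 8 of these 10 falls kept their sign but no longer passed, the exceptions being Cebpg and Pdia5.

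**Figure D4:**
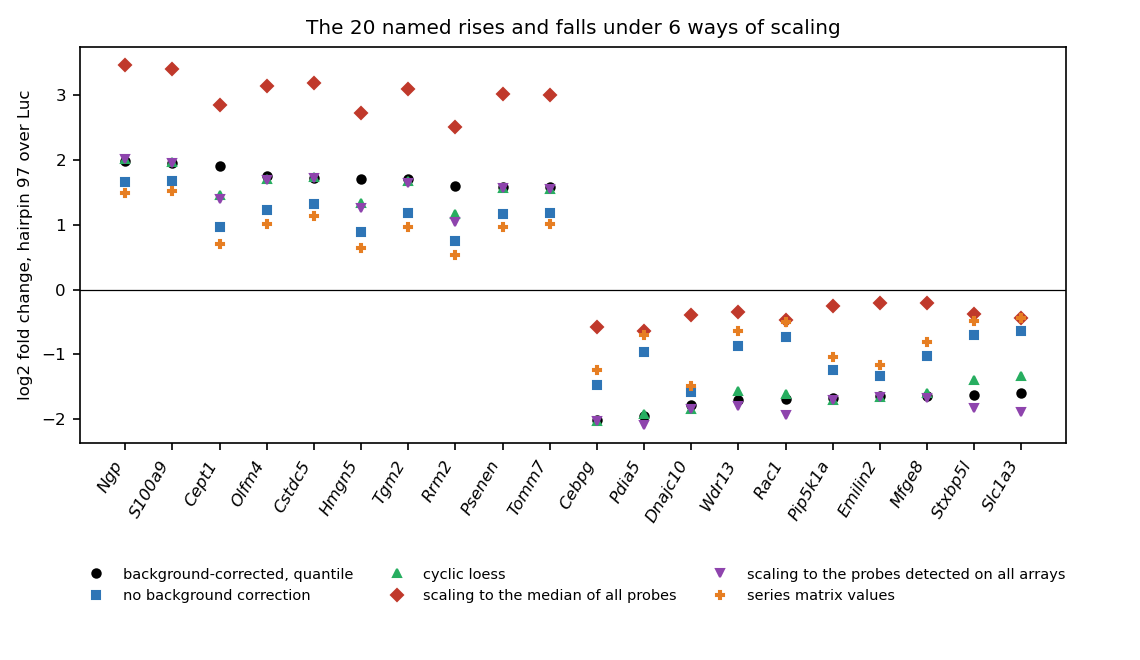
Log2 fold change of hairpin 97 over Luc for the 10 largest rises and 10 largest falls by the naming rule, under the main scaling (black) and 5 alternatives. Scaling to the median of all probes moves every gene up, and all 20 keep their sign.

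Several probes per gene allowed a check within genes. Of 2246 genes with at least 2 member probes, 144 had all probes called higher, 46 all called lower, and 163 had calls in opposite directions. Pygl, liver glycogen phosphorylase, had both probes higher, with a rise of 1.19 (SE 0.20, adjusted p = 0.00164) at the brighter and of 1.39 at the other. Bex3, a small adaptor of the p75 neurotrophin receptor, read 9.36, 9.48 and 9.35 in Luc and 7.84, 7.78 and 8.0 with hairpin 97 at its brightest probe. It fell by 1.52 (SE 0.14, adjusted p = 0.000273), and its other probe passed with -1.57. All 3 probes of Poc1b, a centriole protein, fell, by 1.41 (SE 0.16, adjusted p = 0.000388) at the brightest and with -1.16 and -1.12 at the others. Where calls oppose each other the arrays do not settle the direction of the gene.

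Some genes were seen in a single group. Of the 1163 probes detected on all hairpin 97 arrays and on 0 Luc arrays 810 were called higher, and all 14 of the opposite kind were called lower. Such probes are members only through the group that detected them, so these directions follow from the rule and are not a separate result. The largest bounds above Luc were those of 1700123O20Rik (at least 3.38-fold, adjusted p = 0.000229) at a dim probe whose bright partner gave 0.09, of Ncf1, of Arf5 (at least 2.43-fold, adjusted p = 0.000229), a GTPase of Golgi traffic, and of Fcnb at its dimmer probe (at least 2.32-fold). Among probes lost with hairpin 97, Prdm12, a transcriptional regulator, was at least 1.97-fold lower (adjusted p = 0.000625) and Piwil1, of the Piwi family, at least 1.91-fold lower (adjusted p = 0.0063).

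Hairpins 97 and 94 target the same gene and share the 3 Luc arrays, so their changes against Luc are not independent, and only the direct contrast tests a difference. In that contrast 25 of 10078 probes (0.248%) passed, 5 higher and 20 lower with hairpin 97, with 935 at an unadjusted p under 0.05. The count was not stable. It was 0 by limma without any 1 of the hairpin 94 replicates or without hairpin 97 replicate 4 or 5 (560 to 1044 at an unadjusted p under 0.05) and 2 without hairpin 97 replicate 6, while with array quality weights it was 189.

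Tgm2, a transglutaminase that crosslinks proteins, read 6.75, 6.78 and 6.42 in Luc, 8.59, 8.43 and 8.06 with hairpin 97 and 6.98, 6.94 and 6.84 with hairpin 94. Hairpin 97 lay apart from both, with a rise of 1.71 (SE 0.17, adjusted p = 0.000273) over Luc and a difference of 1.44 from hairpin 94 (SE 0.17, adjusted p = 0.012). Vamp7, a vesicle fusion protein, and Tmem199, an assembly factor of the V-ATPase, were also higher than with hairpin 94, by 1.01 (adjusted p = 0.0152) and 1.00 (adjusted p = 0.0431). On the other side Ccl4 differed by -1.73 (SE 0.22, adjusted p = 0.0152) and Ccl9 by -1.26 (SE 0.13, adjusted p = 0.012). Gpc1, a heparan sulfate proteoglycan, read 9.54, 9.62 and 9.86 in Luc, 8.83, 8.72 and 8.63 with hairpin 97 and 9.79, 9.91 and 10.13 with hairpin 94, so hairpin 97 was below both, with -1.22 against hairpin 94 (adjusted p = 0.0134). Ifi27, an interferon-induced mitochondrial protein, rose with both hairpins but by less with hairpin 97, at 0.45 against 1.63 over Luc at its brightest probe (difference -1.18, adjusted p = 0.012). That rise with hairpin 97 lost its call without Luc replicate 1 (0.36, adjusted p = 0.0701) or without hairpin 97 replicate 4 (0.44, 0.0768) or 5 (0.41, 0.0921).

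**Figure D5:**
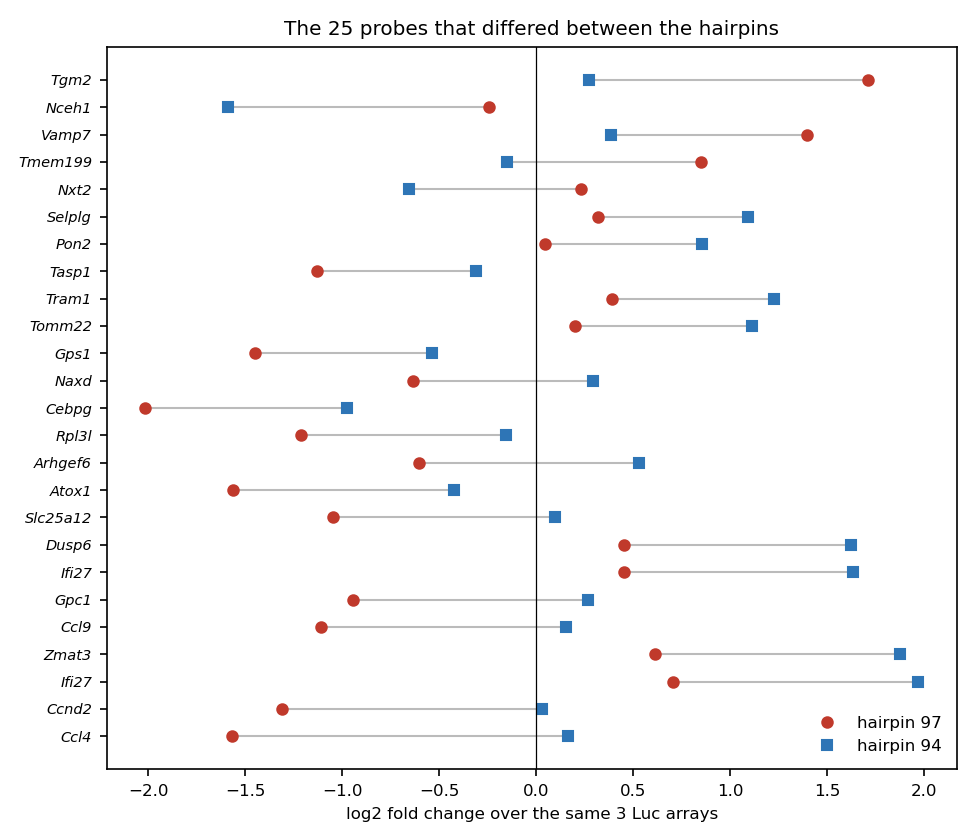
Log2 fold change over the same 3 Luc arrays for the 25 probes that differed between the hairpins, hairpin 97 as circles and hairpin 94 as squares, in order of the difference. Ccl4, Ccnd2, Ccl9 and Gpc1 lie below 0 with hairpin 97 and near or above 0 with hairpin 94, while Tgm2 lies far above 0 with hairpin 97 and near 0 with hairpin 94.

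Leading genes of the secondary granule and maturation list had like values with both hairpins. Against the shared Luc arrays Camp gave 3.14 with hairpin 97 and 2.56 with hairpin 94, Ngp 1.99 and 1.83, and S100a9 1.96 and 2.00. None of these differences between hairpins passed, the adjusted p being 0.649 for Camp, 0.851 for Ngp and 0.967 for S100a9. For Camp the difference was 0.58 with an SE of 0.32. A difference that does not pass does not show that the hairpins act alike.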

How the data were processed

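Total RNA was biotin-labelled and run on Illumina bead arrays by the manufacturer's protocol, per the labels. The authors deposited a table of average bead intensity per probe and array, not normalized between arrays and with background left in. Beside each intensity the deposited table has that probe's detection p-value, per the file headers. How these p-values were computed is not given in the sources used here. The authors also deposited a matrix of log2 values whose columns share one distribution, with a median of 6.61 in each of the 9. Each column ranked probes most like its own array, and only its software is unknown. It served as an alternative.

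Intensities of the 9 arrays were background corrected from the detection p-values with an offset of 16 and quantile normalized (neqc, limma 3.58.1 in R 4.3.3). The linear model had one mean for each of the 3 groups (lmFit, eBayes), and p-values were adjusted by Benjamini-Hochberg over 10078 probes with a threshold of 0.05. Of 45281 probes 34885 had 1 gene symbol, 18 had several and 10378 had none. Current symbols were matched by gene number for 34807. A gene was represented by its brightest member probe. A probe undetected on a whole group has only a bound, the bright group's mean over the higher of each dim array's lowest detected signal and the probe's own value. Promoter sequences come from RefSeq tables, by symbol and with the first listed window of a gene. The limma step was tested on simulated data.

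Genes named were the largest rises and falls detected on all 6 arrays with one sign in every scaling, the largest bounds, genes whose probes all passed one way, the leading members of each list, and the largest differences between hairpins. Genes given as members that did not pass, and a few relatives (S100a8, Lcn2, Ctsb, Atf4, Nceh1 and Dusp6 among them), were chosen after their values were seen. Genes named only to show what a list's calls hold, such as Calr, Ccrl2, Slc2a3 and Fcgr2b, are not among the 144 genes followed through the settings below. The members and the 47 gene lists were chosen with earlier results of these data known. A further list is not reported here. The number of arrays limits the precision.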

Additional observations from a re-analysis of the deposited data

Results flagged for a closer look

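The contrast of hairpin 97 with hairpin 94 gave a direct test of each difference between the hairpins, and the named genes that passed it are collected here as log2 differences, hairpin 97 minus hairpin 94. Higher with hairpin 97 were Tgm2 (1.44, adjusted p = 0.012), Vamp7 (1.01, adjusted p = 0.0152), Tmem199 (1.00, adjusted p = 0.0431) and Nceh1, an enzyme of cholesterol ester breakdown (1.35, adjusted p = 0.023). Nceh1 differed from Luc by -1.59 with hairpin 94 and by -0.24 with hairpin 97, so it was the hairpin 94 arrays that stood apart.

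Lower with hairpin 97 were the chemokine genes Ccl4 (-1.73, adjusted p = 0.0152) and Ccl9 (-1.26, adjusted p = 0.012), Ccnd2 (-1.34, adjusted p = 0.023), Gpc1 (-1.22, adjusted p = 0.0134) and Cebpg (-1.04, adjusted p = 0.0495). For Ccl4, Ccl9, Ccnd2 and Gpc1 it was the hairpin 97 arrays that stood apart from the other 2 groups. Zmat3 (-1.26, adjusted p = 0.012), both probes of Ifi27 (-1.18, adjusted p = 0.012 at the brightest and -1.26, adjusted p = 0.0152 at the other) and Dusp6, a phosphatase of ERK (-1.17, adjusted p = 0.0495), were instead highest with hairpin 94. In limma fits without any 1 of the hairpin arrays 0 to 2 of all probes passed, with 560 to 1044 at an unadjusted p under 0.05, so these calls rest on all 6 hairpin arrays, except for the 2 left without hairpin 97 replicate 6.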

How the results depend on the processing

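No paired analysis was possible because the replicate numbers of hairpin 97 (4 to 6) and Luc (1 to 3) share no number and the labels do not tie samples together. The number of probes past the threshold for hairpin 97 against Luc, 3902 in the reported fit, became 8115 under scaling to the median of all probes, 6216 when scaled to probes detected on all arrays, and 0 with a covariate for the detected probes of each array. The 2410 higher probes became 1435 under cyclic loess, 8109 under scaling to the median of all probes and 1139 when scaled to probes detected on all arrays. They became 1255 when the probes detected on all 6 arrays were fitted and adjusted alone, and 0 with the covariate. The 1492 lower probes became 6, 5077 and 0 under both scalings and the covariate. Without any 1 of the 6 arrays the total was 2725 to 4114, with 1700 to 2575 higher and 1025 to 1539 lower. The other settings (no background correction, an offset of 50, the series matrix, the 6 arrays alone, no filter, array weights, a mean-variance trend and the mean of a gene's probes) kept these 3 counts within 1.5 times.

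The 25 probes that differed between the hairpins became 133 without background correction, 93 with an offset of 50, 171 under cyclic loess, 99 under scaling to the probes detected on all arrays, 148 in the series matrix, 7 without a filter, 86 among probes detected on all 6 arrays, 189 with array weights, 91 with a mean-variance trend and 0 to 2 without any 1 of the hairpin arrays. The covariate left 18, scaling to the median of all probes 35 and the mean of a gene's probes 34.

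Of the 144 genes named, 124 passed the threshold, and 35 changed sign under scaling to the median of all probes, with log2 fold changes of Actb 0.35, Atp6v0b 0.51, Bag3 0.59, Btrc 0.72, Ccl9 0.30, Ccng1 1.10, Cd93 0.58, Cdkn1a 1.19, Csnk1d 0.65, Cst7 0.60, Cstb 0.59, Ctsc 0.53, Cyba 0.80, Cyp51 0.65, Eif2b3 0.58, Eya1 0.77, Gapdh 1.27, Gpc1 0.47, Hnrnpc 0.52, Hoxa5 0.22, Hp 0.64, Il3ra 0.66, Junb 0.24, Kit 0.99, Mcm2 1.33, Mdm2 1.06, Mrpl38 0.35, Nceh1 1.23, Ndufc1 0.52, Nkg7 0.43, Plk1 1.29, Prtn3 0.97, Rps6 1.18, Serpinb1a 0.52 and Sesn1 0.54. Under the mean of the probes of a gene the sign turned for Ccng1 0.57 and Eya1 0.026. Under scaling to the probes detected on all arrays the sign turned for Cpa3 -0.41, Csnk1g3 -0.019, Dusp6 -0.66, Ltf -0.11, Prg3 -0.89, Rrm2b -0.58, Wrap53 -0.42 and Zmat3 -0.71. With the covariate the sign turned for Prg3 -0.085. Under cyclic loess the sign turned for Zmat3 -0.21. With the covariate all 124 genes that passed lost the call. All turns under scaling to the median of all probes went from negative to positive, the direction in which that scaling moved the median. They do not rank falls against rises. The cause of these changes was not tested. Of 44 lists with at least 5 measured genes, 25 changed the sign of their median relative to all genes under some setting that kept all arrays. Dim probes limit the comparison, since fewer probes rose above background on Luc arrays, and fitted folds of probes near background depend on the offset.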
